A study of Rattus norvegicus with 6 samples.

Results

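Cell cycle and DNA replication genes were described in the jejunum of stressed and control rats. The 45 listed genes were looked up among the non-control array probes through the RefSeq accession of each probe, and 39 of them had at least 1 probe, of 13837 genes that could be named in this way. Where a gene had several probes, the probe with the highest mean log2 processed signal over the 6 arrays stood for it. The listed genes fell into 7 G1 and S entry genes (all 7 measured), 17 S phase genes (16 measured) and 21 mitotic genes (16 measured). No probe was matched through its accession to the S phase gene Mcm5 or to the mitotic genes Bub1b, Cdca3, Nusap1, Top2a and Mki67. All 39 measured genes were well above background on all 6 arrays.

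Male Sprague-Dawley rats of 6 weeks, with a body weight of 200 ± 20 g, were first kept in a room at 25°C with a humidity of 60% and were then assigned to a control group or to the S3d group, which was kept at 35°C under a vibration of 0.1 g for 2 h per day on 3 days. Whole jejunum was measured on 1-colour Agilent rat arrays, which carry short DNA probes that capture dye-labelled RNA, with 3 arrays per group. By the labels each array held RNA pooled from 3 rats, and 10 rats made up a group. The study's methods give fewer rats per group, so few that pools of this size would share rats. Nothing in the sources used here says that the pools came from separate cages or days, so the p-values measure only the spread between these arrays.

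In the small intestine, cells divide in the crypts and then stop dividing as they move up the villus, so transcripts of the replication and mitosis machinery come mainly from the crypt and from dividing cells of the immune and supporting tissue. D cyclins with CDK4 and E cyclins with CDK2 drive a cell from G1 into S phase, in which origins are licensed by the MCM helicase and DNA is copied by polymerases that PCNA clamps to the template. Mitosis then follows under cyclin B with CDK1 and the Polo and Aurora kinases, and ends when the anaphase-promoting complex marks cyclins and securin for destruction.

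The 75th percentile of the processed signal lay between 414.8 and 430.0 on the control-labelled arrays and between 1457.7 and 1558.3 on the S3d-labelled arrays, and each array was therefore scaled to its own 75th percentile. The range from the 10th to the 90th percentile of the log2 signal of the tested probes was also wider on the control-labelled arrays (8.38 to 8.53) than on those labelled S3d (7.58 to 7.66). Each group was hybridised on a slide of its own and the scans of both slides were 450 days apart, so that group, slide and scan cannot be told apart. The deposited table of normalized values carries the group labels the other way round. Each of its columns ranked the probes as the scanner file of the same replicate number in the other group did (Spearman correlation 1.0, against 0.943 to 0.953 with the file of its own label). No sample was reassigned. Every direction below is that of the scanner files, which is opposite to that of the normalized table and to that in which the study describes its stress genes on the arrays and by real-time PCR, and for this reason the groups are called the S3d-labelled arrays and the control-labelled arrays.

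Promoter sequences are shown for the largest differences among the S phase members (Pola1 and Mcm6) and for mitotic members that lay higher (Ccnb2) and lower (Plk1 and Cdc20) on the S3d-labelled arrays. They run from 250 bases before to 20 bases after the start of the gene in RefSeq, build GRCr8, in the same order at chrX:62342336-62342605 (minus strand), chr13:42404333-42404602 (minus strand), chr8:79981639-79981908 (minus strand), chr1:186147408-186147677 (plus strand) and chr5:137255780-137256049 (minus strand). Capitals mark the words TTTCCCGC, TTTCGCGC, TTTGCCGC or TTTGGCGC of an E2F site, TTTGAA or TTCGAA of a cell cycle genes homology region (CHR), and CCAAT of an NF-Y box, each on either strand.
Pola1: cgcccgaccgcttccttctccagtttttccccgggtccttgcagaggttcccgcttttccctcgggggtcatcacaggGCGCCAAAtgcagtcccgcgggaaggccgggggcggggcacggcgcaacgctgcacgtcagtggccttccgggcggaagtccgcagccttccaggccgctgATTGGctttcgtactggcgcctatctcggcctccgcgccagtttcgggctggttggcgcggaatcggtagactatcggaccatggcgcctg
Mcm6: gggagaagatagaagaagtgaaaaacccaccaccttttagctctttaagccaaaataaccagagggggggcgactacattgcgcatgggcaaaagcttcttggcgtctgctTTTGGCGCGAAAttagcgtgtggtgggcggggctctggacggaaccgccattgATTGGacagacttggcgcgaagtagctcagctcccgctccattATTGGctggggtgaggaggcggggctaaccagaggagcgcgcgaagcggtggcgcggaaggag
Ccnb2: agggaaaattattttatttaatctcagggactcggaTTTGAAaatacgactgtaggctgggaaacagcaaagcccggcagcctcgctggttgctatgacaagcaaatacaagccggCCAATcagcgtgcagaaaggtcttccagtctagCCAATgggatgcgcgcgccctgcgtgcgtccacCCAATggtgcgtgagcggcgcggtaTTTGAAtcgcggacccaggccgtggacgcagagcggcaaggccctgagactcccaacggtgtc
Plk1: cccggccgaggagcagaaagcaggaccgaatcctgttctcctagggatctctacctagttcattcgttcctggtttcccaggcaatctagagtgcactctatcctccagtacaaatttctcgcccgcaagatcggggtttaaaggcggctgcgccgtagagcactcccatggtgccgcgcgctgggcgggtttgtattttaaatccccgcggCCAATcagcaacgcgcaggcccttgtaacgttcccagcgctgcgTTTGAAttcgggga
Cdc20: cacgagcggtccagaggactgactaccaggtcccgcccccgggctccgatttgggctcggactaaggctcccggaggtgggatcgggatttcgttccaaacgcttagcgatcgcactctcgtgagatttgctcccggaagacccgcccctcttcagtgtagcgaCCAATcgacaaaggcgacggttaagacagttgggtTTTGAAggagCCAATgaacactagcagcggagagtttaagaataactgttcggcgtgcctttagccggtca

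Of the 39 members, 28 had a promoter in the RefSeq table, which was searched from 250 bases before to 50 bases after the start. An E2F word was found in 8 of 14 S phase promoters (57.1%) and in 1 of 11 mitotic promoters (9.09%, Cdk1), against 2.14% of all 33469 promoters. In the Mcm6 promoter both E2F words overlap, on opposite strands. A CHR word together with an NF-Y box was found in 6 of 11 mitotic promoters (54.5%) and in 3 of 14 S phase promoters (21.4%), against 7.95% of all promoters. The mitotic promoters with both words belonged to Cdk1, Plk1, Birc5 and Cdc20, which were lower on the S3d-labelled arrays, and to Ccnb2 and Ttk, which were higher. Across phases, an E2F word was present in 5 of 15 promoters of members called higher and in 2 of 8 promoters of members called lower. A match describes the letters of the window, and no binding was measured.

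The members moved in both directions. With limma and Benjamini-Hochberg adjustment over the 31367 probes tested, 19 of the 39 members (48.7%) were called higher on the S3d-labelled arrays, 11 (28.2%) were called lower, and 9 were not called at an adjusted p under 0.05. Among all tested probes 39.5% were called higher and 34.5% lower. Among tested probes with a gene symbol 36.8% were called higher and 37.1% lower. Of the called members, 9 that were higher and 6 that were lower also reached a 1.5-fold difference. As shares of the 39 members both are smaller than the 29.2% and 23.3% of all tested probes. The ranges of both groups were apart in 30 members, which is 76.9% and close to the 78.9% of all tested probes. More than 7 in 10 of the tested probes were thus called. The counts of called members lie near that background, and those at 1.5-fold lie below theirs. In whole tissue, a different share of dividing cells and a different amount of RNA per dividing cell cannot be told apart.

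The split depended on the scaling. With each array centred on its median instead of its 75th percentile, 12 members were called higher and 16 lower, and all tested probes split into 31.7% higher and 42.3% lower. All values, and with them the median of all tested probes, fell by 0.20. Ccne1, Mcm2, Mcm3, Pcna, Tyms, Bub1 and Ttk lost their call higher, and Ccnd1, E2f1, Mcm7, Prim1 and Aurkb were then called lower. With quantile normalization the counts were 21 and 10. Ccnd1 and Kif20a were added higher, and Cdk1 lost its call. These scalings thus called Ccnd1 in opposite directions, at -0.24 with median centring (limma adjusted p = 0.0382) and at 0.22 with quantile normalization (limma adjusted p = 0.025). In the normalized table, by its own labels, 10 members were called higher and 21 lower.

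S phase members lay above mitotic members as groups, an order that the lists of related genes described below did not share. The median log2 fold change, given throughout as the S3d-labelled minus the control-labelled arrays, was 0.36 over the 16 S phase members (10 called higher, 3 lower, range -1.17 to 1.57), 0.11 over the 16 mitotic members (6 higher, 6 lower, range -1.38 to 1.14) and -0.03 over the 7 G1 members (3 higher, 2 lower, range -1.12 to 1.05). The median of all tested probes was 0.08, and 10 of the S phase and 9 of the mitotic members lay above it. Among all tested probes 39.5% were called higher and 34.5% lower. In the lists of related genes the order was opposite, with medians of -0.13 (S phase) and 0.17 (mitotic). A value of 1 on this scale is a 2-fold difference. The distance between the medians of the S phase and the mitotic members was 0.25 and stayed between 0.21 and 0.33 in every setting run on the scanner files. It was not tested, since genes are not replicates. The mean log2 processed signal moved with it, with a median of 10.003 in the S phase members, 11.4 in the mitotic members and 7.87 in all tested probes. Across genes, the log2 fold change and the mean log2 signal had a Pearson correlation of -0.28 over the 39 members and -0.34 over all tested probes, and the part of signal in the distance between the groups was not tested.

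**Figure D1:**
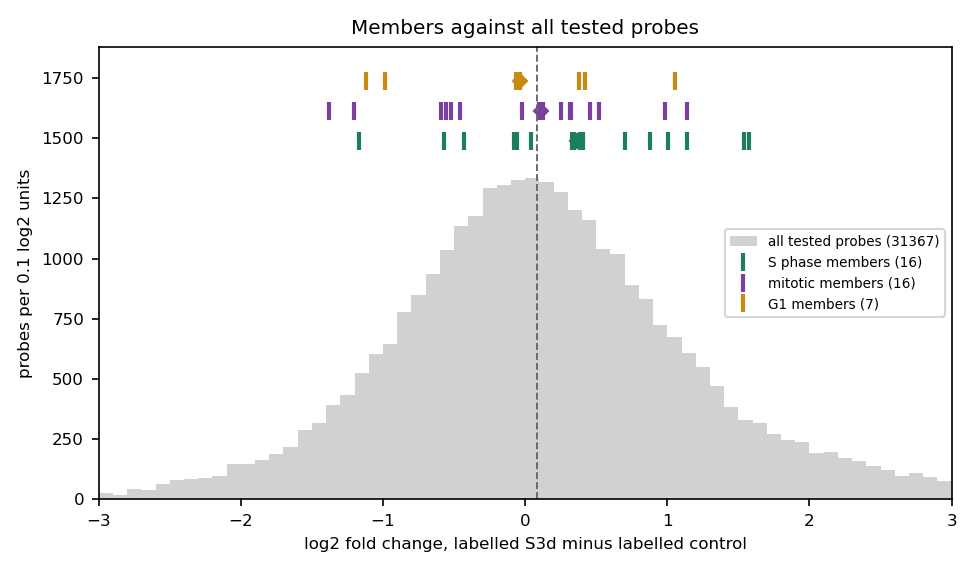
Histogram of the log2 fold change (arrays labelled S3d minus labelled control) of the 31367 tested probes, in bins of 0.1, with the 16 S phase, 16 mitotic and 7 G1 members as coloured ticks, a diamond at each group's median (0.36, 0.11 and -0.03) and a dashed line at the median of all probes (0.08). Probes beyond 3 on either side are not drawn, and the members spread over both sides as the probes do.

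Among the G1 and S entry genes, 3 were called higher, all of them cyclins, and 2 lower, both of them kinases, while cyclin D1 was not called. Cdk2, the kinase partner of the E cyclins, measured 0.55, 0.45 and 0.49 (log2 signal relative to the array's 75th percentile) on the control-labelled arrays and -0.69, -0.60 and -0.58 on those labelled S3d. All 3 values of the S3d group lay below all control values, by -1.12 (SE 0.07, limma adjusted p = 3.38e-05), but a second probe gave -0.25 and was not called (limma adjusted p = 0.198). Cdk4, the partner of the D cyclins, was also lower (log2 fold change -0.99, SE 0.10, limma adjusted p = 0.000232), with a smaller difference at its other probe (-0.46, limma adjusted p = 0.00414). The cyclin D2 gene Ccnd2 went the other way, from 1.70, 1.59 and 1.79 on the control arrays to 2.63, 2.83 and 2.79. Its groups were well apart, with a log2 fold change of 1.05 (SE 0.09, limma adjusted p = 0.000119).

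Both E cyclins were higher, with log2 fold changes of 0.38 for Ccne1 and 0.42 for Ccne2 at the brightest probe and of 1.14 and 1.44 at the other. With normexp, another background correction, on 5 arrays without control replicate 3, Ccne2 was called in the opposite direction (-0.17, limma adjusted p = 0.0378). Cyclin D1 (Ccnd1) measured 3.16, 3.00 and 3.00 against 3.04, 2.96 and 3.04, so its groups overlapped, and the difference of -0.03 was not called (limma adjusted p = 0.689, 95% interval from -0.21 to 0.15). E2f1, a transcription factor that switches on S phase genes, also overlapped, with 0.06, 0.02 and -0.12 on the control-labelled arrays and -0.04, -0.12 and -0.06 on those labelled S3d (log2 fold change -0.06, limma adjusted p = 0.473). For Ccnd1 and E2f1 the second, dimmer probe was called lower, at -0.60 and -0.41.

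Over all 7 cyclins among the members, whatever their phase, 5 were called higher, 1 lower (Ccna2) and 1 was not called, whereas all 3 cyclin-dependent kinases were called lower, with log2 fold changes from -1.12 to -0.53. This grouping was made after the values were seen and carries no test. Outside the members, the cyclin D3 gene Ccnd3 was called lower (-0.75) and the kinase gene Cdk6 was not called (0.15, limma adjusted p = 0.135). Among all tested probes 39.5% were called higher and 34.5% lower. The call of Ccna2 rests on its brightest probe, and with median centring 4 cyclins were called higher and 2 lower. Cdk1 lost its call with quantile normalization (-0.13, limma adjusted p = 0.226). With normexp on all 6 arrays, Cdk2 measured -0.92, Cdk4 -0.45 and Cdk1 -0.040, and the calls were lost (limma adjusted p from 0.0746 to 0.949).

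**Figure D2:**
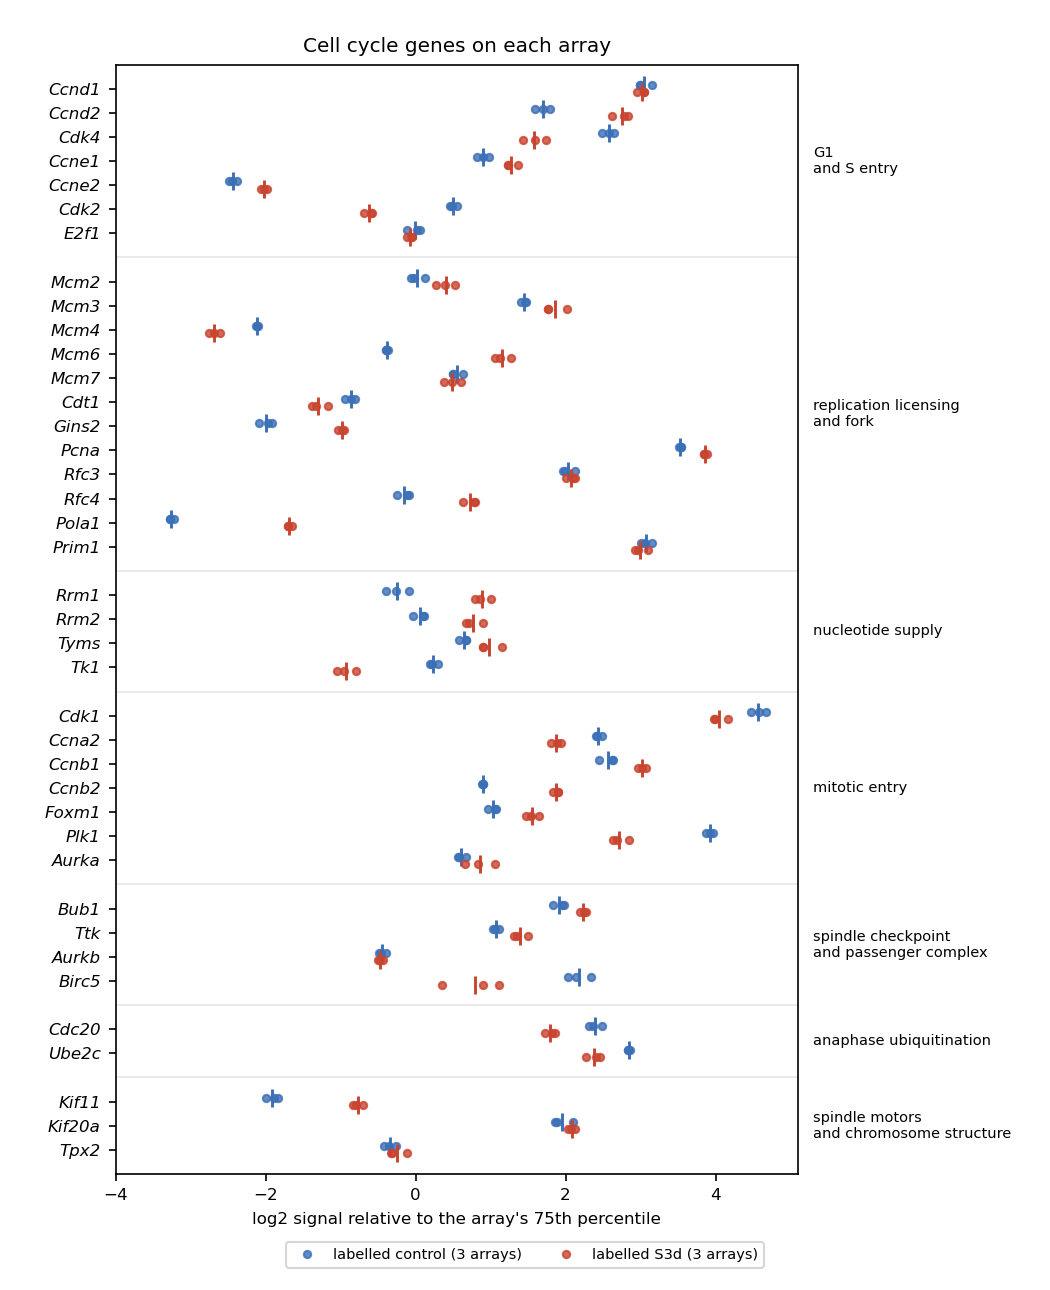
Log2 signal relative to the array's 75th percentile (horizontal axis) of the 39 members on each of the 3 arrays labelled control (blue) and the 3 labelled S3d (red), by role, with a tick at each group's mean. The spread between arrays of a group is small for most genes (median SD 0.08 in the control group and 0.09 in the S3d group), and Birc5 has the widest spread on the S3d-labelled arrays.

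The largest differences among the S phase members were in the polymerase that primes DNA synthesis and in the replicative helicase. Pola1, the catalytic subunit of DNA polymerase alpha, measured -3.22, -3.27 and -3.27 on the control-labelled arrays and -1.65, -1.70 and -1.70 on those labelled S3d. The gap was many times the spread within either group (log2 fold change 1.57, SE 0.06, limma adjusted p = 1.29e-05), and a second probe gave 1.64. The size depended on the background correction. With normexp it was 0.18 on 6 arrays and not called (limma adjusted p = 0.814), and 0.79 on 5 arrays, below Mcm6 (1.36) and Rrm1 (0.95). Mcm6, a subunit of the helicase ring that opens the double helix, rose from -0.37, -0.39 and -0.39 to 1.06, 1.13 and 1.27 (log2 fold change 1.54, SE 0.08, limma adjusted p = 2.09e-05).

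The helicase subunits differed among themselves. Mcm2 (0.38) and Mcm3 (0.41) were called higher and Mcm4 was called lower (-0.57, with -0.74 at its other probe). Mcm7 measured 0.64, 0.50 and 0.50 on the control arrays and 0.38, 0.48 and 0.60 on the S3d-labelled arrays, and its groups overlapped (log2 fold change -0.06, limma adjusted p = 0.553, 95% interval from -0.27 to 0.15). Of the 5 subunits measured, 3 were thus higher and 1 lower in a complex whose subunits act in one ring. With median centring Mcm2 (0.18) and Mcm3 (0.21) were not called and Mcm7 was called lower (-0.26), which leaves 1 higher and 2 lower. Cdt1, which loads that ring onto origins, was lower by 0.43 (limma adjusted p = 0.00385), and Gins2, a subunit of the GINS complex that turns the ring into an active helicase, was higher by 1.00 (limma adjusted p = 6.44e-05), or by 0.56 with normexp on 5 arrays.

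At the fork, Pcna, the sliding clamp, was higher by 0.33 at its brightest probe (limma adjusted p = 0.00218) and by 1.22 at a dimmer one. Of the clamp loader genes, Rfc4 was higher by 0.88 (limma adjusted p = 0.000155). Rfc3 stayed within its spread, with 2.12, 1.97 and 2.00 on the control arrays and 2.12, 2.00 and 2.09 on those labelled S3d (log2 fold change 0.04, limma adjusted p = 0.606, 95% interval from -0.13 to 0.22). Prim1, the catalytic primase subunit that works with Pola1, was not called either (log2 fold change -0.08, limma adjusted p = 0.396), and both of its probes lay below 0.

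At their brightest probes, 3 of the 4 genes of nucleotide supply were called higher and 1 lower. Rrm1, the large subunit of ribonucleotide reductase, which makes deoxyribonucleotides, measured -0.26, -0.09 and -0.39 on the control-labelled arrays and 0.79, 0.86 and 1.01 on those labelled S3d, without overlap (log2 fold change 1.14, SE 0.10, limma adjusted p = 0.000163). Its 2 dimmer probes gave 0.12, which was not called, and 0.89.

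The small subunit Rrm2 measured 0.12, 0.10 and -0.03 against 0.71, 0.67 and 0.91 at its brightest probe, again without overlap, and was called higher (0.70, SE 0.09, limma adjusted p = 0.000653). Its second probe went from -0.39, -0.54 and -0.56 down to -1.52, -1.18 and -0.85 and was called lower (-0.68, limma adjusted p = 0.0125). The direction of Rrm2 therefore depends on the probe.

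Tyms, the enzyme that makes thymidylate from its uracil precursor, was higher by less, from 0.67, 0.67 and 0.59 to 0.90, 0.90 and 1.15 (log2 fold change 0.34, limma adjusted p = 0.0156). Tk1, the enzyme that salvages thymidine, was the S phase member with the largest fall, from 0.30, 0.20 and 0.21 on the control arrays to -0.96, -1.04 and -0.80 on the S3d-labelled arrays. Its groups were far apart (log2 fold change -1.17, SE 0.08, limma adjusted p = 6.55e-05). At the brightest probes the 3 genes of synthesis were thus called higher and the 1 gene of salvage lower. A dimmer Rrm1 probe was not called (0.12) and the second Rrm2 probe was called lower. Tyms lost its call with median centring (0.14, limma adjusted p = 0.235). A difference between the pathways was not tested.

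**Figure D3:**
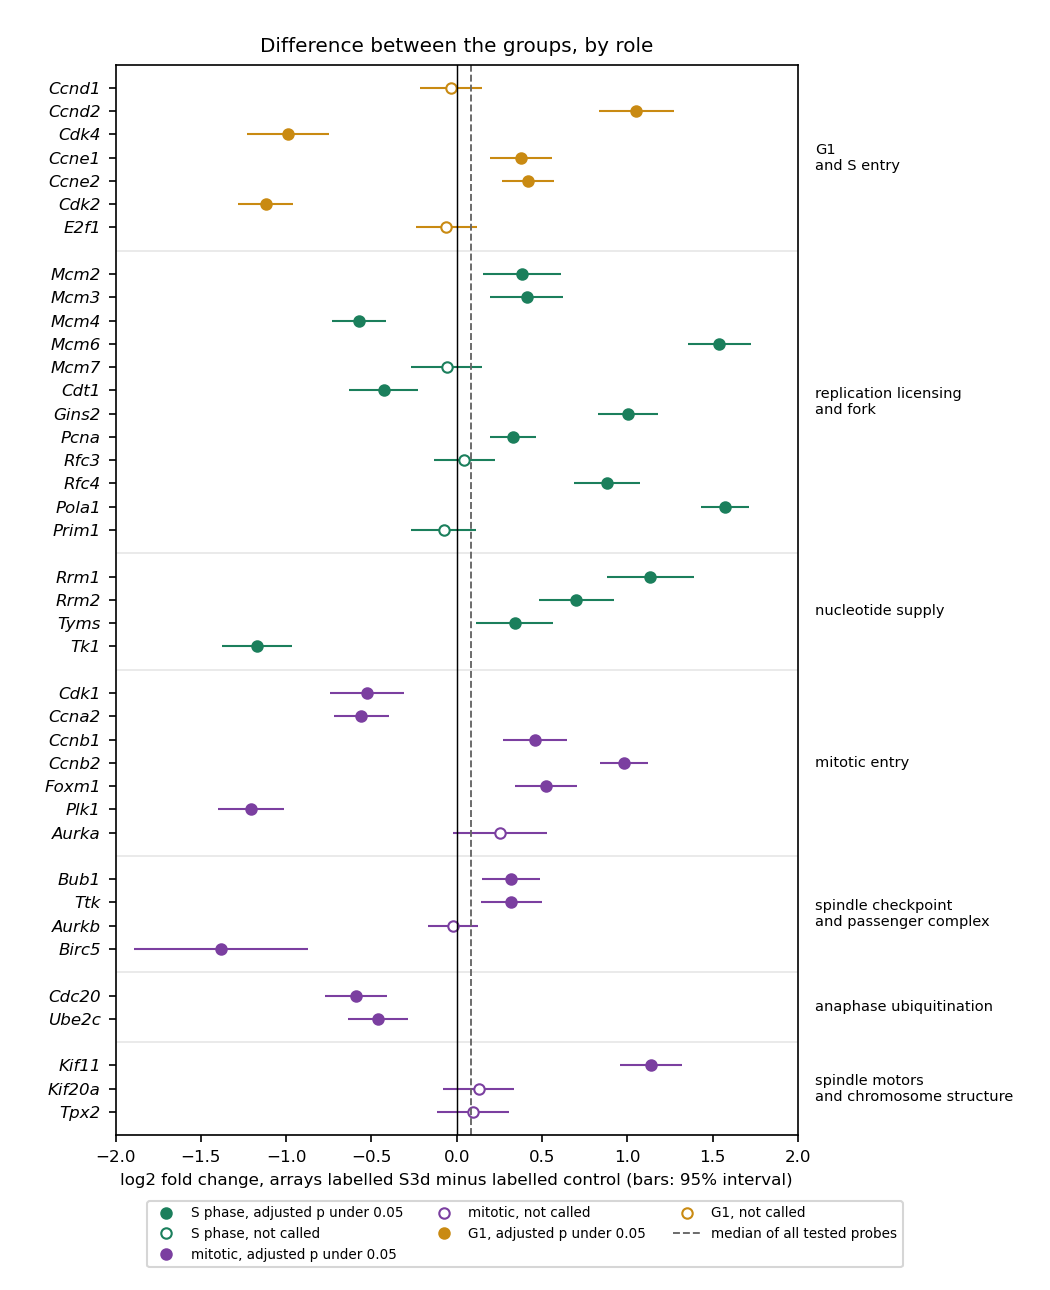
Log2 fold change (arrays labelled S3d minus labelled control) of the 39 members with its 95% interval from limma, by role, filled where the adjusted p was under 0.05 and open where it was not. The dashed line is the median of all tested probes (0.08), and members called higher and members called lower stand side by side in 5 of the 7 roles.

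Mitotic entry genes were split, with 3 of 7 called higher and 3 lower (42.9% each, against 39.5% and 34.5% of all tested probes). The 3 lower genes include Ccna2, whose other probe was called higher. Plk1, the Polo kinase that acts from entry to exit of mitosis, measured 3.97, 3.93 and 3.87 on the control-labelled arrays and 2.69, 2.63 and 2.84 on those labelled S3d. It was lower on all 3 of the latter (log2 fold change -1.20, SE 0.08, limma adjusted p = 4.78e-05), and its other probe gave -1.11. Cdk1, the kinase of mitotic entry, was lower by 0.53 (limma adjusted p = 0.00219), a call that was lost with quantile normalization (-0.13).

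Its B cyclins were higher. Ccnb2 lay within a very narrow range of 0.90, 0.90 and 0.89 on the control arrays and at 1.90, 1.83 and 1.90 on the S3d-labelled arrays (log2 fold change 0.98, SE 0.06, limma adjusted p = 3.32e-05). Ccnb1 showed a smaller difference in the same direction, from 2.63, 2.45 and 2.62 to 3.08, 2.97 and 3.02 (log2 fold change 0.46, limma adjusted p = 0.00209). Neither gene had overlapping groups. Foxm1, the transcription factor that switches on many mitotic genes, was higher by 0.52 (limma adjusted p = 0.00107).

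Cyclin A2 (Ccna2), which acts in S phase as well as at mitotic entry, gave opposite answers at its probes. The brightest probe measured 2.48, 2.41 and 2.42 on the control arrays and 1.93, 1.81 and 1.89 on those labelled S3d (log2 fold change -0.56, limma adjusted p = 0.000452). The other probe measured -1.66, -1.69 and -1.72 against -1.21, -1.14 and -1.05 (log2 fold change 0.56, limma adjusted p = 0.000524), so no direction can be given for the gene. The Aurora kinase gene Aurka measured 0.67, 0.58 and 0.57 against 0.67, 0.84 and 1.06, with 1 array labelled S3d inside the range of the control group, and was not called (log2 fold change 0.25, limma adjusted p = 0.0854).

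At the kinetochore, the checkpoint kinases that delay anaphase until chromosomes are attached were both slightly higher. Bub1 went from 1.98, 1.95 and 1.83 to 2.25, 2.19 and 2.27 (log2 fold change 0.32, limma adjusted p = 0.00624). Ttk went from 1.12, 1.06 and 1.03 to 1.31, 1.36 and 1.49 (log2 fold change 0.32, limma adjusted p = 0.00825), with 1.11 at a dimmer probe. Neither reached 1.5-fold at its brightest probe, and both lost their call with median centring (0.12 each, limma adjusted p = 0.205 for Bub1 and 0.221 for Ttk).

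Of the chromosomal passenger complex, which corrects faulty attachments, Birc5 (survivin) fell most of all members. It measured 2.35, 2.03 and 2.14 on the control-labelled arrays and 0.36, 0.91 and 1.12 on those labelled S3d, where the first array lay well below the other two (log2 fold change -1.38, SE 0.21, limma adjusted p = 0.00137). Aurkb, the kinase of the same complex, overlapped, with -0.47, -0.40 and -0.48 against -0.50, -0.44 and -0.47 (log2 fold change -0.02, limma adjusted p = 0.75, 95% interval from -0.17 to 0.13).

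Both measured genes of anaphase ubiquitination were lower. Cdc20, which activates the anaphase-promoting complex, measured 2.48, 2.32 and 2.37 on the control arrays and 1.81, 1.73 and 1.86 on the S3d-labelled arrays (log2 fold change -0.59, SE 0.07, limma adjusted p = 0.00064). Ube2c, the ubiquitin-conjugating enzyme of that complex, measured 2.83, 2.87 and 2.84 against 2.41, 2.28 and 2.46 (log2 fold change -0.46, SE 0.07, limma adjusted p = 0.00151). The groups of both genes were apart.

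Of the spindle motors and structural genes, Kif11, the motor that pushes spindle poles apart, was higher, from -1.997, -1.89 and -1.83 to -0.70, -0.83 and -0.79 (log2 fold change 1.14, SE 0.07, limma adjusted p = 4.62e-05). A much dimmer second probe of Kif11 gave -0.11 and was not called. Kif20a, a motor of the late spindle, measured 2.10, 1.86 and 1.89 against 2.13, 2.04 and 2.07 and overlapped (log2 fold change 0.13, limma adjusted p = 0.214, but 0.25 and called with quantile normalization). Tpx2, which nucleates spindle microtubules, measured -0.26, -0.42 and -0.35 against -0.33, -0.31 and -0.12 and overlapped too (log2 fold change 0.10, limma adjusted p = 0.348).

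Several probes were present for 18 of the members. In 15 of them all probes had the same sign, in 3 (Ccna2, Kif11 and Rrm2) they did not, and the median spread between probes of 1 gene was 0.78 log2 units. That spread was about 10 times the median SE of a member (0.08), so the probe mattered more to the size of a difference than the spread between arrays did. The dimmer probes lay higher than the brightest probe in 11 of the 18 genes and lower in 7. The widest spread, 1.46, was in Mcm2, whose probes gave 0.38 and 1.84.

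**Figure D4:**
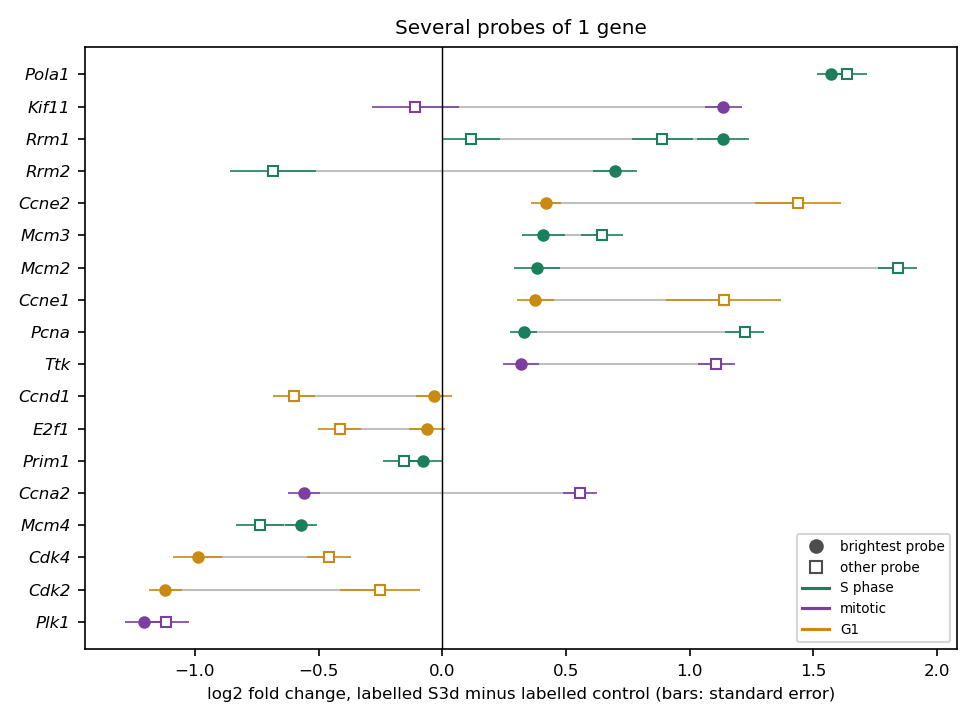
Log2 fold change (arrays labelled S3d minus labelled control, horizontal axis, bars for the standard error) of every probe of the 18 members with several probes, filled for the brightest probe and open for the others, coloured by phase. Probes of Pola1, Plk1, Prim1 and Mcm4 lie close together, whereas those of Ccna2 and Rrm2 stand on opposite sides of 0.

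Other genes of the cycle, taken from lists of related genes, were also called in both directions, in proportions that differed between the lists. Of 32 tested S phase genes outside the members, 14 (43.8%) were called higher and 16 (50%) lower (median log2 fold change -0.13). Among all tested probes the shares were 39.5% and 34.5%. The highest were Pola2 (1.90), the second subunit of polymerase alpha, Orc5 (1.64) of the origin recognition complex, and the primase subunit Prim2 (1.38). These probes were dim, with means of -3.77 (Pola2), -3.22 (Orc5) and -2.72 (Prim2) on the control-labelled arrays. With normexp the dim member Pola1 shrank, and values with normexp are not given for these genes. Orc2 (-1.95), of the same origin complex, Chaf1b (-1.14), a histone chaperone subunit, and the flap endonuclease Fen1 (-1.14) were the lowest. This list had its median below 0 where the S phase members had theirs above.

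Subunits of a complex were also set side by side, a choice made after the values were seen. In the polymerase alpha and primase complex 3 of 4 genes were called higher and Prim1 was not called. The called genes had dim probes, with control means of -3.26 (Pola1), -3.77 (Pola2) and -2.72 (Prim2), against 3.07 for Prim1. All 6 genes of the origin recognition complex were called, 4 higher and 2 lower (Orc1 -0.77 and Orc2 -1.95), and 1 array labelled S3d had no value for Orc6 because its spot was an outlier. In replication factor C, Rfc2, Rfc4 and Rfc5 were higher (0.75, 0.88 and 0.87), Rfc1 was lower (-0.79) and Rfc3 was not called. In GINS, Gins2 (1.00) and Gins4 (0.33) were higher and Gins3 lower (-1.11). In the passenger complex Cdca8 was higher (0.84) while Birc5 and Incenp were lower (-1.38 and -1.04). Directions within a complex thus differed in 5 of the 6 complexes, counting the helicase. Among all tested probes 39.5% were called higher and 34.5% lower, so a mixture in such small sets was likely from the outset. The count was not tested.

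Of 35 further mitotic genes tested, 16 (45.7%) were called higher and 9 (25.7%) lower, against 39.5% and 34.5% of all tested probes (median 0.17). Cdca5 (1.51), which protects cohesion between sister chromatids, the condensin subunit Smc4 (1.18) and the microtubule depolymerase Kif2c (0.96) were the highest. The Cdca5 probe was dim, with a mean of -4.52 on the control-labelled arrays. Pttg1 (securin, -1.25), which holds back separation of the sisters, Incenp (-1.04), the scaffold of the passenger complex, and the midzone protein Prc1 (-0.60) were the lowest.

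Among the brakes of the cycle, both kinase inhibitors named by rule moved in opposite directions. Cdkn1a (p21), a p53 target that inhibits cyclin-dependent kinases, measured 4.96, 5.03 and 5.01 on the control-labelled arrays and 3.19, 2.96 and 3.11 on those labelled S3d. It was lower on every S3d array (log2 fold change -1.91, SE 0.08, limma adjusted p = 1.53e-05). Cdkn1b (p27), an inhibitor that holds resting cells in G1, went from 1.41, 1.37 and 1.41 to 2.62, 2.78 and 2.46, higher without overlap (log2 fold change 1.23, SE 0.09, limma adjusted p = 8.21e-05). Of 14 inhibitors and pocket proteins tested, 6 (42.9%) were called higher and 4 (28.6%) lower, against 39.5% and 34.5% of all tested probes (median 0.22). The others named by their size were Cdkn2b (0.70) and Cdkn2a (0.66), inhibitors of CDK4, and in the other direction the mitotic brake Wee1 (-0.49) and the antiproliferative gene Btg1 (-0.36). Rb1, the retinoblastoma protein that restrains E2F, was higher by 0.48 (limma adjusted p = 0.0209).

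Of 10 other G1 and E2F genes tested, 1 (10%) was called higher and 4 (40%) lower, against 39.5% and 34.5% of all tested probes (median -0.22). Myc, a driver of growth and proliferation, measured 2.26, 2.18 and 2.40 against 1.30, 1.27 and 1.23 and was lower without overlap (log2 fold change -1.02, limma adjusted p = 8.69e-05). Ccnd3 (-0.75) and E2f3 (-0.53) were lower too. The 1 gene called higher was the phosphatase gene Cdc25a, whose values of -7.21, -5.97 and -1.32 on the control-labelled arrays were far apart, the first of them not well above background, against 0.42, -0.11 and -0.79 on those labelled S3d. Its SE of 1.498 was larger than that of any member, and no fold is given.

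Markers of the tissue moved with the groups. Their calls stand beside the 39.5% of all tested probes that were called higher and the 34.5% called lower. The summed signal of 12 villus enterocyte markers, in units of the array's 75th percentile, lay between 4146 and 4569 on the control-labelled arrays and between 1838 and 1868 on those labelled S3d, with 9 of the 12 called lower and 1 higher. The 6 crypt base markers summed to between 38.0 and 43.1 against 33.2 to 34.1, with 2 called higher (Lgr5 0.93 and Olfm4 2.87) and 3 lower (Ascl2 -0.48, Smoc2 -0.66 and Axin2 -1.39). Smoc2, the brightest of them (mean log2 signal 5.11 against 4.45), weighed most in this sum of linear signal. The crypt base markers, like the members, thus gave no single direction.

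The 6 pan-epithelial markers, all well above background on all 6 arrays, summed to 466 to 474 against 402 to 427. Goblet and Paneth cell markers summed to 825 to 878 against 312 to 327, lymphocyte and leukocyte markers to 26.2 to 34.5 against 19.27 to 22.4, and smooth muscle markers to 116 to 141 against 107.5 to 127.8, where the groups overlapped. Of the 6 pan-epithelial genes 4 were called lower and 1 higher (Krt8, 0.61). Of 4 goblet and Paneth cell genes tested 2 were called lower (Tff3 -2.13 and Mmp7 -1.34). Clca1 (-0.03) and Lyz2 (-0.08) were not called. Tff3 was the brightest of them (mean log2 signal 9.39 on the control-labelled and 7.26 on the S3d-labelled arrays). It therefore weighed most in the goblet and Paneth cell sum, which is of linear signal. Of 8 lymphocyte and leukocyte genes 7 were lower and 1 higher (Itgam, 0.97), and of 5 smooth muscle genes 2 were lower and 1 higher (Myh11, 0.98). Defa5 was well above background on no array. The part of the cell types in the members' differences was not tested.

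**Figure D5:**
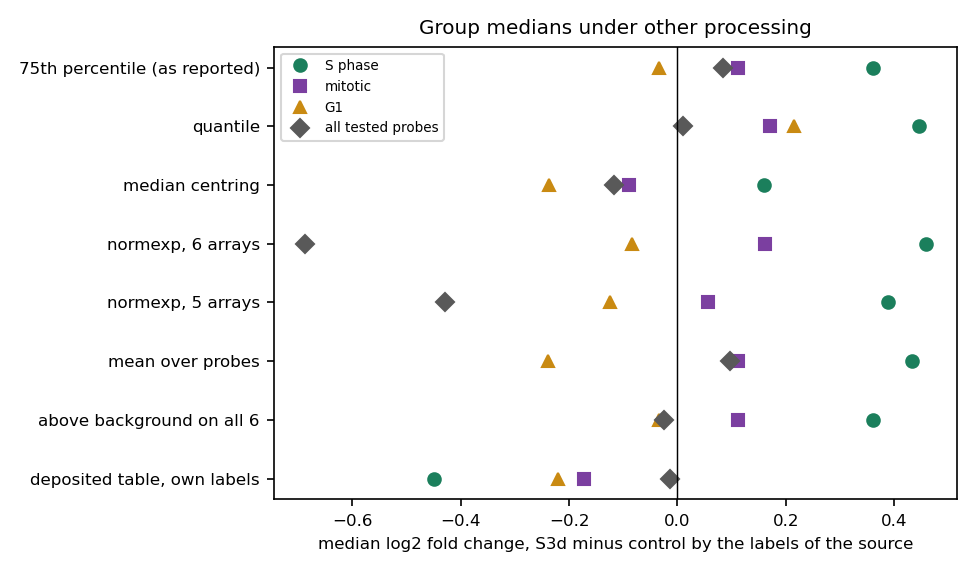
Median log2 fold change (horizontal axis, S3d minus control by the labels of the source used) of the S phase, mitotic and G1 members and of all tested probes under 8 ways of processing. The S phase median lies to the right of the mitotic median in every setting on the scanner files (0.36 against 0.11 as reported) and to the left of it in the deposited table (-0.45 against -0.17), whose labels run the other way.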

How the data were processed

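RNA of 3 arrays per group was compared. The authors deposited the scanner output of Agilent Feature Extraction 10.7.3.1 for each array. From these deposited intensity values the processed signal was taken, from which the program had subtracted the background without scaling one array to another, and, for the normexp alternative, the median signals of spot and background. The authors also deposited a table of normalized log2 values, whose normalization is not given in the sources used here and which served as an alternative. Their log2 scale is borne out by the scanner values, whereas which of both sources carries the right group labels was not settled here.

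Control spots and spots with outlier flags were left out, repeated spots of a probe were averaged, and the log2 processed signal minus the array's 75th percentile was taken. A probe entered the test where every array of the control group, of the S3d group or of both gave a signal well above background (31367 of 41012 probes). The fit used lmFit and eBayes of limma 3.58.1 under R 4.3.3 without a block, and p-values were adjusted by Benjamini-Hochberg. A probe was called at an adjusted p under 0.05. The fit was tested on simulated data with 200 of 31137 probes changed, far fewer than were called here. It recovered 63% of the changes of 1 log2 unit and 16% of those of 0.5, with 2 false calls. The share of changed probes thus differed from that of the data.

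Of 20904 probes with a RefSeq accession, 17512 were named through the RefSeq table of GRCr8, and 58 probes belonged to members. Values on all arrays are given for the 2 members with the largest and the 2 with the smallest absolute log2 fold change in each role, for all members of small roles and for genes with probes of opposite sign that were both called. Of the lists of related genes, the 3 highest and 3 lowest called genes are named, and Cdkn1a, Cdkn1b, Rb1 and Myc in any case. The members and lists were chosen with earlier results of these data known. Promoters were searched with Python 3.11.15, pandas 2.3.3 and numpy 2.4.6, and figures drawn with matplotlib 3.10.9. The alternatives were other scalings, background corrections, filters and tests, the replicate block, the mean over probes, the deposited table and each array left out. The slide could not be fitted as a block, since no slide holds both groups. One item of the marker lists is not reported here and was left out of the sums. Coordinates are those of GRCr8 and were used for promoters alone.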

Additional observations from a re-analysis of the deposited data

How the results depend on the processing

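Leaving out each array in turn gave 19 to 20 members called higher and 11 called lower in every case, S phase medians of 0.32 to 0.41, mitotic medians of 0.07 to 0.17, G1 medians of -0.059 to 0.018 and medians of all tested probes of 0.08 to 0.09. Without control replicate 1 the G1 median and Ccnd1 turned to 0.018, and without control replicate 2 Aurkb turned to 0.0027. Over all 6 omissions Ccnd1 ranged from -0.062 to 0.018 and Aurkb from -0.039 to 0.0027. None of these values was called. The added calls were Kif20a without control replicate 1 (0.20, limma adjusted p = 0.0466) and Aurka without S3d replicate 1 (0.35, limma adjusted p = 0.0229). The replicate number used as a block left 19 members called higher and 11 lower. Deviations of arrays with the same number from their group means correlated at 0.02, 0.02 and -0.05, so the numbers did not pair the arrays. An intensity trend, kept outlier spots, both filters on dim probes and the analysis of variance of the methods, before and after Benjamini-Hochberg adjustment, also left 19 and 11. The filters moved the median of all tested probes to 0.031 (no filter) and -0.025 (above background on all 6 arrays). The mean over the probes of a gene gave 18 and 12, a G1 median of -0.24 and a median of all tested probes of 0.10.

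Scaling moved more. Quantile normalization turned the G1 median and Ccnd1 (called higher) to 0.22 and Prim1 to 0.17, and gave a median of all tested probes of 0.011. Median centring lowered every value by the same amount, giving 12 members called higher, medians of 0.16 (S phase), -0.090 (mitotic), -0.24 (G1) and -0.12 (all tested probes), and turned Rfc3 to -0.16, Kif20a to -0.074 and Tpx2 to -0.11. Normexp background correction of the median signal gave 1 member called higher and 0 lower with limma (10 and 4 at an unadjusted p under 0.05), an S phase median of 0.46 and a median of all tested probes of -0.69, and turned Ccnd1 to 0.36, Ccne2 to -0.69, Mcm7 to 0.051, Prim1 to 0.48, Ube2c to 0.015 and Tpx2 to -0.17. Its fit gave control replicate 3 a background mean of -840.9, against -12.8 to -5.5 on the other arrays. Run on the other 5 arrays, an alternative chosen after seeing the data, it gave 19 higher and 12 lower, a G1 median of -0.12 and a median of all tested probes of -0.43, with Ccne2 at -0.17 (called lower), Prim1 at 0.077 and Tpx2 at -0.058. The cause of the other changes under scaling and background correction was not tested.

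The deposited normalized table, read by its own labels, gave 10 members called higher and 21 lower, with medians of -0.45 (S phase), -0.17 (mitotic), -0.22 (G1) and -0.013 (all tested probes). Of the 39 members 37 changed sign, the group labels of this table being exchanged against those of the scanner files: Ccnd2 -1.21, Cdk4 0.86, Ccne1 -0.42, Ccne2 -0.28, Cdk2 1.11, E2f1 0.061, Mcm2 -0.39, Mcm3 -0.51, Mcm4 0.73, Mcm6 -1.56, Mcm7 0.043, Cdt1 0.48, Gins2 -0.92, Pcna -0.67, Rfc3 -0.18, Rfc4 -0.89, Pola1 -1.40, Rrm1 -1.14, Rrm2 -0.71, Tyms -0.36, Tk1 1.18, Cdk1 0.13, Ccna2 0.42, Ccnb1 -0.68, Ccnb2 -1.05, Foxm1 -0.57, Plk1 0.92, Aurka -0.27, Bub1 -0.46, Ttk -0.37, Aurkb 0.029, Birc5 1.29, Cdc20 0.46, Ube2c 0.26, Kif11 -1.07, Kif20a -0.26 and Tpx2 -0.09. All members were well above background, but on the 5 arrays normexp moved members of low signal, with Pola1 at 0.79 and Gins2 at 0.56. The number of arrays limits the precision.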
